A study of Mus musculus with 8 samples.

Results

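Mir21a is the mouse gene of miR-21, and it was followed here through small RNA libraries from spleen B cells. It is 1 of the 2202 miRNA genes in the deposited count tables and was chosen by its gene identifier, ENSMUSG00000065455.1. The libraries hold either the RNA that came down with AGO2 in an anti-HA immunoprecipitation (IP) or the input RNA. The 4 groups are proliferating IP, proliferating input, resting IP and resting input, with 2 libraries each. All animals were of the genotype Ago2HA/HA, so the controls carry the epitope too, and the reference for each IP is its input. Resting cells were purified by removing cells that bear CD43, and proliferating cells are such cells after activation in culture. The sources used here give neither the activating agent and its duration nor the animals' age and strain. Nothing in the labels tells whether replicates stem from different animals, and the p-values therefore reflect the spread between libraries, which may be technical. The edgeR fits estimate that spread largely from all features tested, not from Mir21a alone. According to the labels, no RNA was recovered after IP from mice lacking the tag, and no such library was made.

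A miRNA is cut from a hairpin transcript, and 1 strand of the resulting duplex is loaded into an Argonaute protein such as AGO2, which it guides to mRNAs that match its seed. miR-21 is transcribed from its own promoter near the 3′ end of Vmp1, the gene of an autophagy protein, and its transcription is known to respond to STAT3, AP-1 and NF-kappaB. A well known target is the mRNA of the translation inhibitor Pdcd4, and forced expression in mice causes B-lineage lymphoma.

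The hairpin spans 92 bases on the minus strand of chromosome 11 (chr11:86584067-86584158, mm10). It lies within the span of Vmp1, which is on the same strand (chr11:86583858-86683836), 209 bases inside its 3′ end. Gene spans alone do not tell whether that stretch is exonic. The RefSeq hairpin (GRCm38.p6) is shown because the deposited count adds all reads on it, with both mature arms in capitals. The 5p arm takes positions 18 to 39 and the 3p arm positions 56 to 77, and a count cannot be assigned to an arm.
Mir21a hairpin: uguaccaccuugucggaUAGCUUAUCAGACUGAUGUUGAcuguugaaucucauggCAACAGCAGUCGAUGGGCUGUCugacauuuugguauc

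The mature sequences of the miR-21 genes are shown next, with the seed (bases 2 to 8) in capitals, because their likeness decides how far reads can be told apart.
miR-21a-5p: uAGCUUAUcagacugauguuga
miR-21a-3p: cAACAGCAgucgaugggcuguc
miR-21b: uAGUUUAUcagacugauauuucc
miR-21c: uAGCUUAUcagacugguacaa
Counted from the 5′ end, miR-21b differs from miR-21a-5p at 4 of 22 compared positions (C4U, G18A, G21U and A22C), the first of them in the seed. miR-21c keeps the seed and differs at 5 of 21 positions (A16G, G18A, U19C, U20A and G21A). Mir21b, on chromosome 3, had 18 and 10 counts in the proliferating IPs, 5 and 2 in the proliferating inputs, 4 and 5 in the resting IPs, and none in the resting inputs. A count of 0 allows a share of up to 0.000836% and 0.000776% in those resting inputs (3 counts of each total). Mir21c, on chromosome 8, had no count in any library. Mir21a held 472849 counts over the 8 libraries, against 44 for Mir21b, so nearly all counts of the miR-21 genes were assigned to the chromosome 11 hairpin.

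Library totals ran from 213418 to 1681148 counts, with the IPs deeper than the inputs, and 219 features passed the filter on low counts. CPM are counts scaled to a fixed library total. Replicate libraries correlated with r from 0.960 to 0.981 in log2 CPM, across features, which are not independent. The B cell label was set against marker miRNAs. Mir150, Mir342 and Mir155, abundant in lymphocytes, took 19.4% to 38.2% of a library. Different members made up that sum in each state. Mir155 took 15.3% and 14.8% of the proliferating inputs, and Mir150 30.7% and 30.2% of the resting inputs. The sum does not tell B cells from other lymphocytes. The 2 myeloid markers together took 0.0698% to 0.107% of the proliferating IPs, 0.221% and 0.340% of the proliferating inputs, 1.45% and 2.94% of the resting IPs, and 1.15% and 2.86% of the resting inputs, nearly all of it Mir223, since Mir511 had 0 to 4 counts a library. The erythroid, stromal, hepatocyte and neural lists stayed under 0.03% in each library, and the endothelial Mir126a and the epithelial list under 0.3%. Only 1 of the 2 erythroid and 3 of the 6 neural members had a feature, Mir451a and the Mir124 genes being absent. The shares of these 2 lists can therefore be too low.

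Mir21a was among the most abundant miRNA genes in every group. Its counts were 100374 and 119845 in the proliferating IPs, 19978 and 15243 in the proliferating inputs, 123137 and 66174 in the resting IPs, and 12950 and 15148 in the resting inputs. As a share of all counts of a library, Mir21a took 12.6% (95% exact interval 12.5 to 12.7) and 8.71% (8.66 to 8.76) of the proliferating IPs. It took 7.23% (7.13 to 7.33) and 7.14% (7.03 to 7.25) of the proliferating inputs, 7.32% (7.29 to 7.36) and 8.39% (8.33 to 8.45) of the resting IPs, and 3.61% (3.55 to 3.67) and 3.92% (3.86 to 3.98) of the resting inputs. These intervals cover counting error only, and the libraries of a group differed by more than that. By its count Mir21a ranked between 2 and 5 in the IPs, at 4 in both proliferating inputs, and at 8 and 7 in the resting inputs. Ranks set counts of different genes side by side, and capture in a library differs between miRNA sequences.

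**Figure D1:**
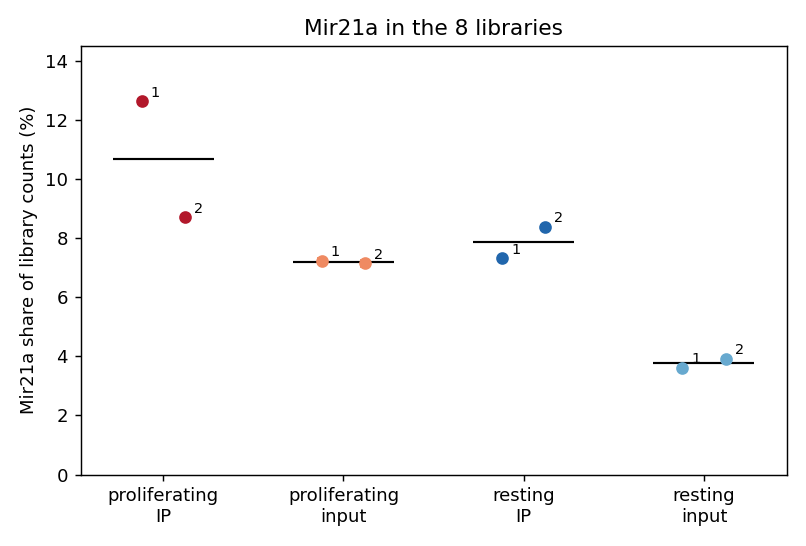
Share of library counts assigned to Mir21a, in percent, for each of the 8 libraries. Points are libraries with their replicate number, vertical bars are exact 95% intervals for counting error (mostly hidden by the points) and horizontal lines are group means. The resting inputs lie lowest, at 3.61% and 3.92%, and the 2 proliferating IPs, at 12.6% and 8.71%, lie farthest apart.

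TMM factors allow for differences in library composition on the premise that most features do not differ. Between the states 49.3% of tested features differed in input and 52.1% in IP (edgeR adjusted p under 0.05), so the premise is uncertain. Scaled with TMM factors, the levels of Mir21a fell into 1 order. The mean was 124211 ± 31956 CPM in the proliferating IPs, 90230 ± 2349 CPM in the resting IPs, 54920 ± 2064 CPM in the proliferating inputs and 36721 ± 671 CPM in the resting inputs (SD, n = 2 each). No library of one group reached into the next on that scale. The gap between the proliferating and the resting IPs was nevertheless within the spread of the proliferating IPs, which were at 146807 and 101615 CPM against 91891 and 88568 CPM in the resting IPs. As plain shares, the resting IPs (7.86% ± 0.752, n = 2) and the proliferating inputs (7.19% ± 0.0626, n = 2) did not differ beyond their spread either. Mir21a varied less over the groups than most features. Its highest and lowest group means were 1.73 apart on the log2 CPM scale, against a median of 2.46 over features with a mean of at least 10 CPM, and 63 of the 209 others had a smaller range. The others include features with few counts, whose range counting noise can widen.

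The comparison of IP with input shows how far a miRNA is over-represented with AGO2 relative to the other miRNAs counted. Mir21a was enriched in the AGO2 IP in both cell states, by a little over 2-fold with TMM factors. In proliferating cells the level in the IP was 2.26 times that in the input (log2 fold change 1.18, SE 0.22, edgeR quasi-likelihood test with Benjamini-Hochberg adjusted p = 5.6e-05). In resting cells it was 2.46 times the input level (log2 fold change 1.30 with an SE of 0.22, edgeR adjusted p = 1.2e-05). In proliferating cells 26.9% of the 219 tested features passed, 29 of them higher (13.2%) and 30 lower (13.7%) in the IP. In resting cells 28.8% passed, 29 higher (13.2%) and 34 lower (15.5%). The first split became 16 higher and 60 lower with library totals in place of TMM factors. The second became 33 higher and 23 lower with upper-quartile factors. In proliferating cells 35 tested features had a larger log2 fold change than Mir21a and 183 a smaller one, and in resting cells 36 and 182.

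Paired by their replicate number, which the labels do not tie to an animal, the share of Mir21a in the IP was 1.75 and 1.22 times its share in the input in proliferating cells. In resting cells the same quotients were 2.03 and 2.14. All 4 quotients exceed 1, and that of the second proliferating library is the lowest. With library totals the log2 fold change in proliferating cells was 0.57 (edgeR adjusted p = 0.035), a smaller value than with TMM factors. Without the second proliferating input it was 0.82 and did not pass (edgeR adjusted p = 0.11). In resting cells the enrichment passed under each of the 17 alternatives run, with log2 fold changes from 1.03 to 1.53.

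The enrichment did not differ detectably between the cell states. The difference, proliferating minus resting, was -0.12 on the log2 scale (SE 0.31, 95% interval -0.75 to 0.51, edgeR adjusted p = 0.84), where 17.4% of the tested features passed. The interval leaves room for a difference of either sign, and a p-value that misses the threshold does not show equal enrichment.

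**Figure D2:**
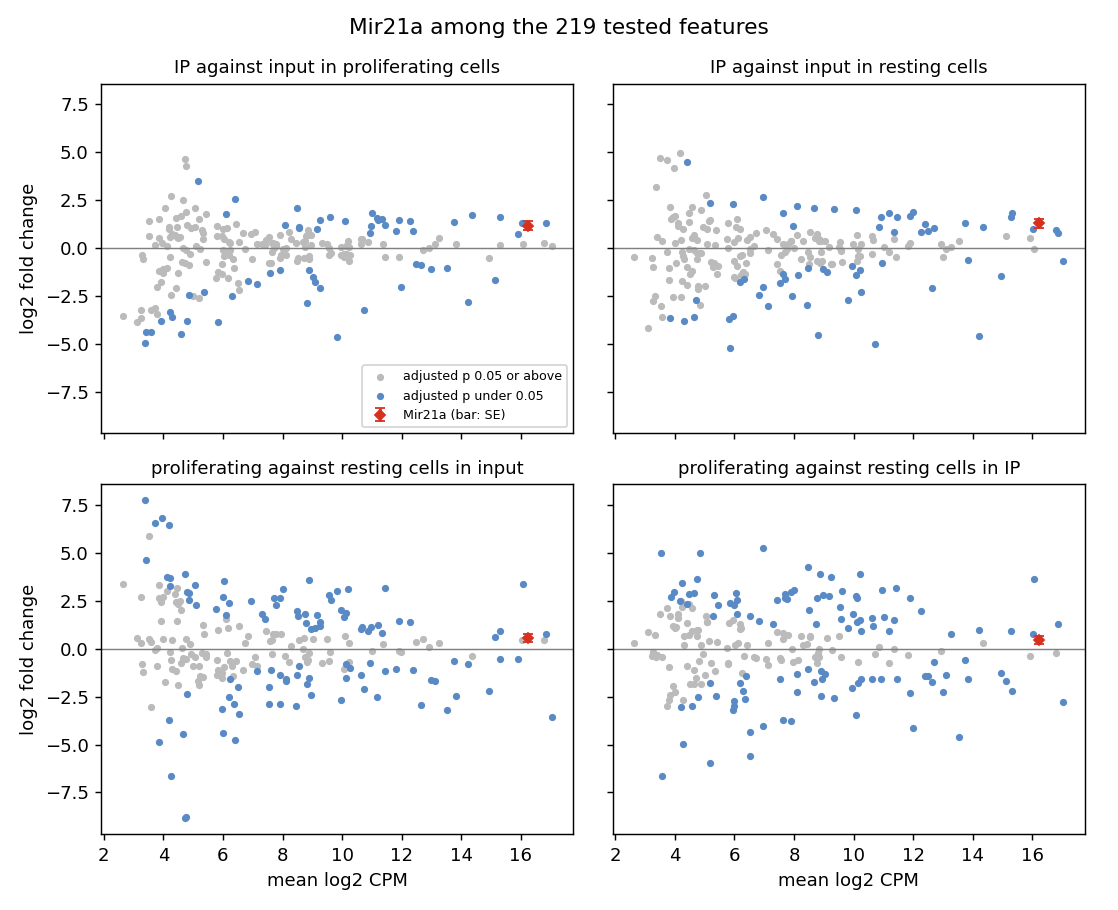
Log2 fold change (vertical axis) against mean log2 CPM (horizontal axis) of the 219 tested features in 4 comparisons; each point is a miRNA gene, blue where the edgeR adjusted p is under 0.05, and the red diamond with its SE is Mir21a. Mir21a lies at the abundant end, at 1.18 and 1.30 for IP against input, and at smaller values between the cell states, 0.58 in input and 0.46 in IP.

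The comparison of proliferating with resting cells shows whether miR-21 differs between the states relative to the other miRNAs counted, not per cell. In the input, Mir21a rose in proliferating cells to 1.50 times the resting level (log2 fold change 0.58, SE 0.22, edgeR adjusted p = 0.028), a comparison in which 49.3% of the tested features passed, 57 higher (26%) and 51 lower (23.3%). That split became 75 higher and 37 lower with library totals. Upper-quartile factors made it 39 higher and 59 lower. The call depends on the scaling and on single libraries. It was larger with library totals (0.93, edgeR adjusted p = 0.0014) and with only the 2 input groups in the fit (0.77, edgeR adjusted p = 1.7e-04). It did not pass with upper-quartile factors (0.21, edgeR adjusted p = 0.49) or with DESeq2 (0.53, adjusted p = 0.12), and it was lost on leaving out 6 of the 8 libraries in turn, all but the second proliferating IP and the second resting IP, with values from 0.36 to 0.76. Without Mir150, an alternative chosen after seeing the data, the value was 0.33 (edgeR adjusted p = 0.21). Mir150 took 30.7% and 30.2% of the resting inputs and 2.88% and 3.84% of the proliferating inputs. In these bulk libraries, fewer cells of a type and less miRNA per cell cannot be told apart.

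In the IP the 1.38-fold difference between the states did not pass (log2 fold change 0.46, SE 0.22, 95% interval 0.016 to 0.91 before adjustment, edgeR adjusted p = 0.072), in a comparison in which 52.1% of the tested features passed, 62 higher (28.3%) and 52 lower (23.7%). Under upper-quartile factors 38 were higher and 75 lower, and Mir21a was at -0.17 (edgeR adjusted p = 0.62). Without the second proliferating IP it passed at 0.56 (edgeR adjusted p = 0.033), and without the second resting IP at 0.53 (edgeR adjusted p = 0.017). By absolute log2 fold change Mir21a ranked 171 of 219 in the input and 183 of 219 in the IP, where the medians of all tested features were 1.27 and 1.49. Features with few counts and a large SE are among the 219, such as Mir21b with an SE of 2.73 in the input.

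Markers of other cell types moved with cell state too, in both directions. The share of the myeloid Mir223 was 0.221% and 0.339% in the proliferating inputs, against 1.15% and 2.86% in the resting inputs, and it fell in proliferating cells, with a log2 fold change of -3.18 in input (edgeR adjusted p = 1.9e-10) and -4.59 in IP (edgeR adjusted p = 3.7e-14). Between the 2 resting inputs the Mir223 share differed 2.48-fold and the Mir21a share 1.09-fold. The endothelial Mir126a moved in the same direction as Mir21a, by 1.41 in input (edgeR adjusted p = 0.0024) and 3.74 in IP (edgeR adjusted p = 2.8e-10), at shares of 0.0626% and 0.0820% in the proliferating inputs against 0.0173% and 0.0253% in the resting inputs. The hepatocyte Mir122 rose by 2.54 in proliferating input (edgeR adjusted p = 0.027), on 22 and 13 counts against 3 and 4 in the resting inputs, and was at -1.86 in the IP (edgeR adjusted p = 0.064). The erythroid Mir144 fell, with -3.42 in input (edgeR adjusted p = 9.6e-05) and -5.58 in IP (edgeR adjusted p = 4.0e-08). The stromal Mir10b was at -1.77 in the IP (edgeR adjusted p = 0.043) and did not pass in input. Of the epithelial list 2 of 5 fell in input and 5 of 5 in IP, and none rose. Of all tested features 23.3% fell in input and 23.7% in IP. The part of other cell types in the levels of Mir21a was not tested.

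Ratios within a library do not depend on scaling, and they set Mir21a beside miRNAs that stand for the cell states. Mir155 is cut from a host transcript that is induced on B cell activation. The count of Mir21a over that of Mir155 was 1.17 and 0.702 in the proliferating IPs, 0.471 and 0.482 in the proliferating inputs, 8.77 and 8.06 in the resting IPs, and 2.98 and 3.64 in the resting inputs. Mir21a thus outnumbered Mir155 in each resting library, while Mir155 had more counts in 3 of the 4 proliferating ones. In both states the ratio was higher in the IP than in the input, and the libraries did not overlap. Mir155 itself was at a log2 fold change of 0.23 between IP and input in proliferating cells and -0.06 in resting cells, neither of which passed (edgeR adjusted p = 0.48 and 0.87).

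Mir146, the gene of miR-146a, a feedback inhibitor of NF-kappaB signalling, gave ratios closer together. Mir21a over Mir146 was 1.21 and 0.795 in the proliferating IPs, 0.521 and 0.541 in the proliferating inputs, 0.516 and 0.766 in the resting IPs, and 0.460 and 0.505 in the resting inputs. The ratio was higher in the IP than in the input in proliferating cells. In resting cells the IP libraries also lay above the inputs, the first by 0.516 against 0.505. Between the inputs of the 2 states it differed by little, with all 4 values between 0.460 and 0.541.

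Mir93, of the growth-promoting Mir106b-93-25 cluster, followed Mir21a in proliferating cells. Mir21a over Mir93 was 0.591 and 0.466 in the proliferating IPs, against 0.584 and 0.585 in the proliferating inputs, and the ranges overlap. In resting cells it was 1.03 and 0.908 in the IPs, against 0.675 and 0.685 in the inputs, and the ranges are apart. Mir150, which restrains Myb in resting lymphocytes, ran the other way between states. Mir21a over Mir150 was 4.10 and 5.18 in the proliferating IPs, 2.51 and 1.86 in the proliferating inputs, 0.521 and 0.440 in the resting IPs, and 0.118 and 0.130 in the resting inputs, with no overlap between any 2 groups.

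**Figure D3:**
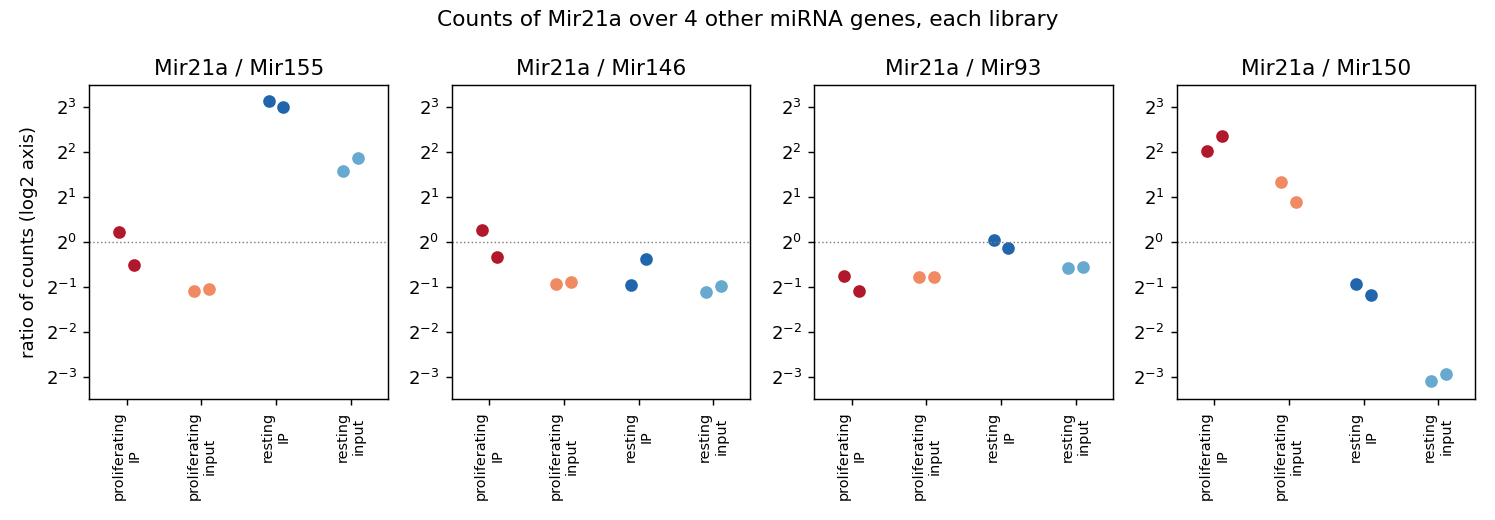
Count of Mir21a divided by the count of Mir155, Mir146, Mir93 and Mir150 in each library, on a log2 axis; points are libraries and the dotted line marks equal counts. The ratio to Mir155 is near or below 1 in proliferating libraries and between 2.98 and 8.77 in resting ones, while the ratio to Mir146 stays between 0.460 and 1.21 throughout.

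Most other miRNAs known to be induced on lymphocyte activation had a larger fold change between the states than Mir21a. The list holds 10 genes, Mir155, Mir146, Mir146b, Mir132, Mir212, Mir221, Mir222, Mir182, Mir183 and Mir96, all of which were tested. It was chosen with earlier results of these data known, so its counts and medians describe the list and are no independent test. Of these, 9 had a larger log2 fold change than Mir21a in the IP and 9 in the input, Mir146 being the exception in both, and the differences from Mir21a were not tested. In the input 8 of 10 rose in proliferating cells and none fell, against 26% of tested features that rose, and the list's median log2 fold change was 3.01, against 0.041 over all tested features. With the other 3 scalings 7 to 10 rose and none fell. Mir155 was 10.3 times as high in proliferating input (log2 fold change 3.37 with an SE of 0.24, edgeR adjusted p = 4.9e-15). The CREB-linked Mir132 rose by 2.52 (SE 0.60, edgeR adjusted p = 6.8e-04) and Mir222, which represses the cell cycle inhibitor p27, by 1.73 (SE 0.38, edgeR adjusted p = 2.5e-04). Mir146 (0.44) and Mir221 (0.66) did not pass, and the value of Mir21a lies between theirs.

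In the IP 8 of 10 rose in proliferating cells, against 28.3% of tested features that rose, with a median of 3.28 against 0.21 over all tested features. None fell with TMM factors, and 1 fell with upper-quartile factors. Mir182 (3.90) and Mir183 (3.92), of the cluster known for its part in T cell expansion, were among them, and Mir146 was at -0.24 (SE 0.22, edgeR adjusted p = 0.35). Between IP and input 2 of 10 members passed in each state, a share below but near that of all tested features (26.9% in proliferating and 28.8% in resting cells). In proliferating cells 1 of 10 was higher in the IP, Mir221 (1.41), and 1 was lower, Mir146b (-3.35), with a median of 0.25 against 0.11 over all tested features. In resting cells 1 was higher, Mir146 (0.95), and 1 lower, Mir132 (-2.01), with a median of -0.59 against -0.05. Of all tested features 13.2% were higher in the IP in each state, and 13.7% were lower in proliferating and 15.5% in resting cells. With library totals 3 were lower in proliferating cells and 2 in resting cells, and with upper-quartile factors 2 were higher and none lower in resting cells.

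**Figure D4:**
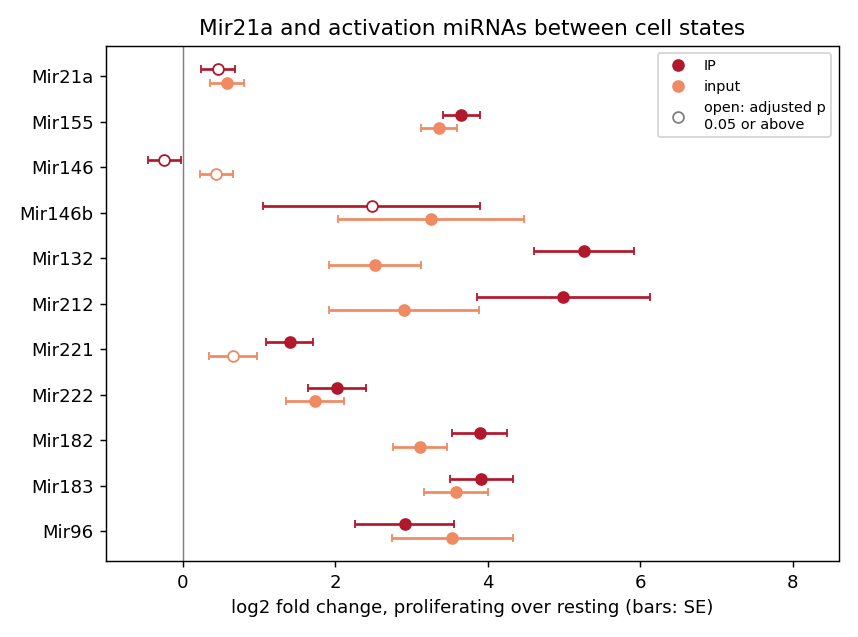
Log2 fold change of proliferating over resting cells for Mir21a and the 10 genes of the activation list, in IP and in input; bars are SE and open symbols did not pass at an adjusted p of 0.05. Mir21a (0.46 in IP and 0.58 in input) lies beside Mir146 at the low end, and Mir155 lies at 3.65 and 3.37. Mir146b and Mir212 had 1 count in each resting IP, so their values there rest on few counts.

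Most features whose profiles lay nearest to that of Mir21a belong to the Mir17-92 cluster or its paralogs, Mir6911 and Mir148b being the exceptions. The cluster as a whole did not share that profile. Its member Mir17 was at -0.77 for IP against input in resting cells and at 3.06 between the states in IP. Mir20a, also of that cluster, was at 1.40 and 1.99 between the states in input and IP. How many of the 209 features compared belong to these clusters was not counted. By distance between the 4 group means of log2 CPM, each feature centred on its own mean, the 5 nearest of 209 were Mir25 (0.26), Mir106b (0.40), Mir6911 (0.47), Mir92-1 (0.58) and Mir148b (0.64). By Pearson correlation of log2 CPM over the 8 libraries, the 5 most alike were Mir92-2 (r = 0.957), Mir92-1 (0.948), Mir25 (0.894), Mir93 (0.890) and Mir19b-2 (0.872). These r describe 8 libraries that fall into 4 groups, and the libraries share tables and scaling factors. Mir6911 and Mir19b-2 had means of only 17.6 and 62.1 CPM, against 66496 CPM for Mir25, so their places rest on few counts. Mir25 and Mir92-1 are on both lists. Mir25 had log2 fold changes of 1.31 and 0.98 between IP and input in proliferating and resting cells, and of 0.44 and 0.77 between the states in input and IP, against 1.18, 1.30, 0.58 and 0.46 for Mir21a. The mature sequences of 4 of these miRNAs, those of Mir25, Mir92-1 and Mir92-2, Mir93 and Mir106b, are shown to compare their seeds, in capitals, with that of miR-21a-5p.
miR-25-3p: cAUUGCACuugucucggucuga
miR-92a-3p: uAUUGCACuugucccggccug
miR-93-5p: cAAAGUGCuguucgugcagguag
miR-106b-5p: uAAAGUGCugacagugcagau
miR-25-3p and miR-92a-3p have the same seed, as do miR-93-5p and miR-106b-5p, and neither seed is that of miR-21a-5p. The other features named here, Mir148b among them, are not shown. Mir92-1 and Mir92-2, on chromosomes 14 and X, give the same mature sequence, so their counts cannot be assigned with certainty.

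**Figure D5:**
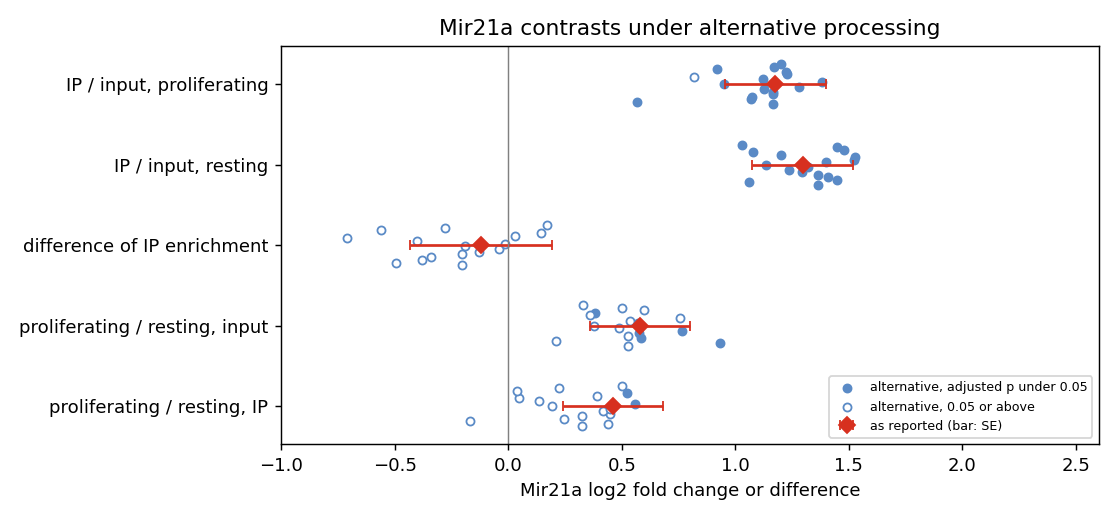
Log2 fold change of Mir21a in 4 comparisons, and the difference of IP enrichment between states, as reported (red diamonds, bars are SE) and under each alternative setting (circles, filled where the adjusted p is under 0.05). The values for IP against input lie to the right of 0 under all settings shown, from 0.57 to 1.38 in proliferating and from 1.03 to 1.53 in resting cells, while the values between the states range from -0.17 to 0.93.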

How the data were processed

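Small RNA was sequenced single-end after library preparation with a QIAseq miRNA kit, per the labels' protocols. The deposited values are unnormalized counts, 1 per library and miRNA gene, from deduplicated alignments, per the file headers. STAR 2.7.9a, SAMtools 1.15 and mm10 are named in the submitters' processing notes. How reads were counted and deduplicated, on which strand, and what became of reads with several positions is not stated in these sources. Resting and proliferating cells are in separate tables of the same 2202 features, so cell state and table cannot be told apart.

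Features were named by exact coordinates in RefSeq GRCm38.p6, which named 1179, and Mir21a matched. CPM use TMM factors (0.797 to 1.34) and shares use library totals. edgeR 4.0.16 in R 4.3.3 was run on the features kept by filterByExpr (minimum count 10), with 4 groups, all 8 libraries and 4 residual degrees of freedom (36.6 prior). Contrasts were 2-sided with Benjamini-Hochberg adjustment over 219 features and a threshold of 0.05. SE is the absolute log2 fold change over the square root of F. The fit was also run on simulated counts, where 40 of 200 features changed 4-fold between the states. In the input comparison it recovered 38 of them, with 0 false calls. Smaller changes, like those of Mir21a, and the IP comparisons were not checked in that run. Replicates differed beyond counting noise (chi-square over its degrees of freedom at least 8.56). Alternatives were other scalings, no filter, DESeq2 1.42.0, a replicate block, fewer groups, fewer features and leaving out each library.

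Named genes were Mir21a, its paralogs, genes with its seed, a list of activation miRNAs, Mir150, the 5 most alike by each of 2 measures, and marker miRNAs. A further list is not reported here. Members and lists were chosen with earlier results of these data known. Mir451a and the Mir124 genes of the marker lists had no matching feature.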

Additional observations from a re-analysis of the deposited data

How the results depend on the processing

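The enrichment of Mir21a in the resting IP passed under all 17 alternatives run, and in the proliferating IP under 16 of 17, the exception being the fit without the second proliferating input (log2 fold change 0.82). Leaving out each library gave 0.82 to 1.38 in proliferating and 1.08 to 1.53 in resting cells. The rise in proliferating input failed in 11 of 17: with DESeq2 size factors (0.53), upper-quartile factors (0.21), the DESeq2 test (0.53), without features over snoRNA, scaRNA or tRNA genes (0.49), without Mir150, an alternative chosen after seeing the data (0.33), and without 6 of the 8 libraries in turn (range over all 8, 0.36 to 0.76). In the IP the difference between states was -0.17 with upper-quartile factors and 0.039 to 0.56 on leaving out each library. The difference of enrichment, never called, turned to 0.17 without Mir150 and ranged from -0.71 to 0.14 on leaving out each library. For each of these, the cause was not tested.

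The replicate block left all 5 calls as they were, with 1.17 and 1.29 for IP against input in proliferating and resting cells, -0.13 for their difference, and 0.58 and 0.45 between the states in input and IP. Deviations of same-numbered libraries correlated between groups with r from -0.12 to 0.18. That r weighs all tested features alike, low counts included, and cannot exclude pairing. The Mir223 share was higher in the second library in both resting groups (IP 1.45% and 2.94%, input 1.15% and 2.86%). In proliferating cells it went opposite ways (IP 0.106% and 0.0695%, input 0.221% and 0.339%). The numbers were not taken as pairs, and whether they are pairs remains unknown.

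Counts of features called moved by over 1.5 times for the difference of enrichment, from 38 to 25 (DESeq2 size factors), 22 (upper-quartile factors) and as few as 11 without a library. They also did for IP against input in proliferating cells, from 59 to 30, 33 and 37 without the second and first proliferating input and the second proliferating IP. For the difference, calls were 21 higher and 17 lower, against 7 and 20 with library totals and 7 and 15 with upper-quartile factors. Scaling moved the median log2 fold change of all tested features by -0.67 to 0.36. Depth did not limit the counts of Mir21a, whereas 2 libraries a group limit every comparison.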
